A study of Mus musculus with 18 samples.

Results

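The 4 arrays of wild type ventricle in this series show which transcripts lead in the untreated adult mouse ventricle and how evenly they do so from array to array. They are 4 of 18 arrays and were chosen by their labels. After 1 probe set per gene was kept, the one with the highest mean over these 4 arrays, 18193 genes were ranked by mean signal. The wild type mice were C57Bl/6J, labelled as 6 months old, with an age range of 6 to 8 months in the design text, and no treatment is stated for them. The other 14 arrays came from leptin-deficient ob/ob mice that were 6 months old when they were given leptin by osmotic mini-pump (n = 5), restricted to the calorie intake of the leptin group (n = 5) or left to eat ad libitum (n = 4) for 1 month. Those arrays were set aside here, apart from a check on the choice of probe sets. All mice were killed between 7 and 8 AM, and RNA came from 45 to 60 mg of minced heart that is labelled as ventricular myocardium. The labels do not give the sex of the mice, nor whether each array came from a separate animal, so the spread between arrays may be partly technical.

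The ventricle is the pumping chamber of the heart. Its cardiomyocytes contract when calcium released from the sarcoplasmic reticulum binds troponin on the thin filament and lets the myosin heads of the thick filament pull on actin. In the mouse, whose heart beats fast, the adult ventricle uses the alpha myosin heavy chain Myh6, whereas the beta chain Myh7 belongs to the fetal ventricle and to slow skeletal muscle. Cardiomyocytes are packed with mitochondria and burn mainly fatty acids, and their ATP is carried to the filaments by the adenine nucleotide carrier and the creatine kinase shuttle. Most cells of the heart are nevertheless not cardiomyocytes: endothelial cells, fibroblasts, pericytes and macrophages lie between the muscle fibres.

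A signal here is a linear MAS5 intensity, and every array had been scaled to the same trimmed mean. A rank is the order of the array signal, which depends on how well each probe set binds its target, so it is not an order of transcript abundance. Low signals show this most plainly: Rps16, a protein of every ribosome, had a mean signal of 1.16, and Ndufb4 and Cox7c, subunits of respiratory complexes I and IV, had 18.3 and 19.9. A low signal is therefore given as a value of its probe set and not as a low transcript level. No detection calls were at hand, and the 32 measured transcripts of organs that were not sampled, such as liver, pancreas, eye and testis, served as a yardstick. Their median signal was 25.3 and their 90th percentile was 59.5, and 48.0% of all genes lay above that 90th percentile. Tff1, a peptide of the stomach lining, stood apart among them at 463.

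Before the results, 3 uneven features of these arrays need stating. Replicate 4 carried higher signals of fibroblast, matrix, myeloid and antigen presentation genes than the others. Replicates 2 and 3 carried higher signals of the atrial transcripts Myl7, Myl4 and Sln. The median signal over all probe sets was lowest on replicate 4, at 23.1, against 26.6 ± 2.51 (SD) over the 4 arrays. The array measures were otherwise close. The 75th percentile lay between 96.3 and 99.6, and the ratios of 3' to 5' signal by which RNA integrity is judged were 0.802 to 0.819 (Gapdh) and 1.14 to 1.30 (actin). Between pairs of arrays the log2 signals correlated at 0.969 to 0.974 across 18193 genes, which were read on the same arrays and are not independent.

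The promoters of 4 genes that stand for the groups described below are shown first. Myh6 is the leading myosin heavy chain, Actc1 the leading actin, Atp5g3 a subunit of the ATP synthase ring, and Nppb the natriuretic peptide with the highest signal. The stretches are from RefSeq, build GRCm38.p6, and run 5′ to 3′ on the gene's strand from 250 bases before the annotated start to 30 bases after it. Myh6 lies at chr14:54966578-54966857 (minus strand), Actc1 at chr2:114052846-114053125 (minus strand), Atp5g3 at chr2:73911297-73911576 (minus strand) and Nppb at chr4:147985650-147985929 (plus strand). Capitals mark the motifs found in these printed stretches. They are TATAAA in Myh6 and Nppb and a CArG box (the binding sequence of serum response factor) in Actc1. In Atp5g3 they are an AAGGTCA site of estrogen-related receptors and a motif of nuclear respiratory factor 1, both read on the other strand. That motif was searched as GCGCA and GCGC with any 1 base between them.
Myh6: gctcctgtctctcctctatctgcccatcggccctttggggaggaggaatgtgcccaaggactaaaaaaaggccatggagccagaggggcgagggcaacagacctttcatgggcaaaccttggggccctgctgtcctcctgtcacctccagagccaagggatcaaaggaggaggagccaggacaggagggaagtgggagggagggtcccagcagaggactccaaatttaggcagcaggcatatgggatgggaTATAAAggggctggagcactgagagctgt
Actc1: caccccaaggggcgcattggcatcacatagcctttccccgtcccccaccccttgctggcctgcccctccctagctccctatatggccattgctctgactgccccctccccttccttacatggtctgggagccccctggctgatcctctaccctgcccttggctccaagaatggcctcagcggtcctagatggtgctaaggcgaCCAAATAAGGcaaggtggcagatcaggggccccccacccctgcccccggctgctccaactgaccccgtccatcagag
Atp5g3: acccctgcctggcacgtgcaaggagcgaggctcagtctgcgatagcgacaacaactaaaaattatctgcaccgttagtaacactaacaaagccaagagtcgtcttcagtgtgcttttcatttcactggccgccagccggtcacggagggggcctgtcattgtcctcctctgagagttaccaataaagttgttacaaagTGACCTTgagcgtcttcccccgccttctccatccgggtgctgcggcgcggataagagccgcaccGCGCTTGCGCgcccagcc
Nppb: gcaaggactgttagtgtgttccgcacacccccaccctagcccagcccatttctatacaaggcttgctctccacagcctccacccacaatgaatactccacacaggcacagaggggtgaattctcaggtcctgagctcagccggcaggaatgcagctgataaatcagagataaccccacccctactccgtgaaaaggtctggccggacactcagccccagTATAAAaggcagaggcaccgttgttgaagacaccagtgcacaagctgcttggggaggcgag
The CArG box of Actc1 covers bases 204 to 213 of its stretch, so it lies before the start at base 251. In Atp5g3 the AAGGTCA match covers bases 199 to 205 and the nuclear respiratory factor 1 motif bases 263 to 272. The TATAAA of Myh6 covers bases 252 to 257, past the annotated start, and that of Nppb covers bases 220 to 225, before it. A TATAAA of Actc1 lies past the end of its printed stretch, at bases 284 to 289 of the 300 searched.

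Motif shares were counted in windows of 300 bases, from 250 before to 50 after each annotated start, on both strands. A CArG box can itself hold a TATAAA. A CArG box was found for 8 of 44 contractile genes with a promoter in the table (18.2%), among them Myl3, Actc1, Acta1, Myom1 and Fhl2, against 1.59% of all 14452 measured genes with one. TATAAA was found for 10 of these 44 (22.7%), against 11.5%. In the genes of oxidative phosphorylation the picture was different: the nuclear respiratory factor 1 motif was found for 16 of 67 (23.9%), against 8.61% of all measured genes, and for 0 of the 44 contractile genes. AAGGTCA was found for 9 of the 67 (13.4%), against 4.61%. TATAAA was found for 5 of 14 natriuretic and secreted peptide genes (35.7%), Nppa and Nppb among them, against 11.5% of all measured genes. Genes with several annotated starts had more windows. There were 1.34 starts per contractile gene, 1.08 per oxidative phosphorylation gene, 1.5 per natriuretic and secreted peptide gene and 1.25 per measured gene. These matches describe letters in a window and say nothing of binding.

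**Figure D1:**
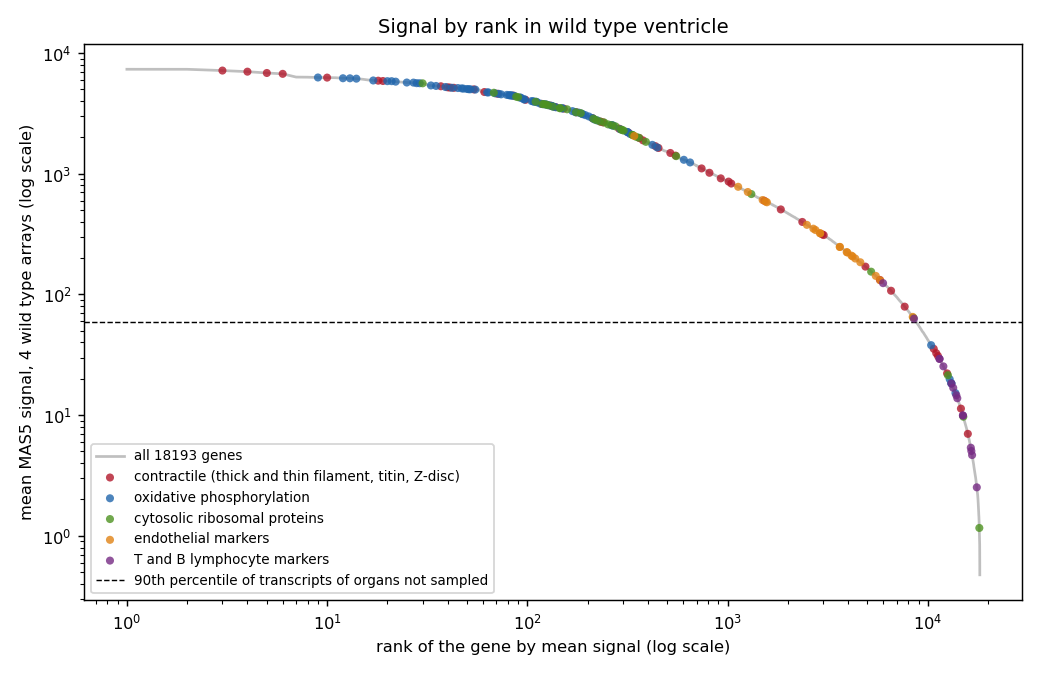
Mean MAS5 signal of each gene on the 4 wild type arrays (vertical, log scale) against its rank (horizontal, log scale). Grey line, all 18193 genes; points, members of 5 gene lists; dashed line, the 90th percentile of transcripts of organs not sampled (59.5). Contractile and oxidative phosphorylation genes fill much of the plateau of the 100 leading genes, and lymphocyte markers lie at the low end.

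The head of the ranking was a plateau of muscle and mitochondrial genes. Slc25a4, the heart and muscle adenine nucleotide carrier of the inner mitochondrial membrane, ranked 1 with signals of 7325, 7182, 7669.6 and 7184 in replicates 1 to 4. Fabp3, the fatty acid binding protein of heart muscle, followed at 7267, 7209, 7192 and 7679. The ranges of these 2 genes overlapped, so their order was not settled by 4 arrays. After them came Myl3, Myh6, Myl2 and Tnnt2 of the sarcomere, then myoglobin (Mb, 6323 ± 374, SD, n = 4), which stores oxygen in muscle, and the mitochondrial phosphate carrier Slc25a3 (6310.2 ± 309). The signal fell by 1.80-fold from rank 1 to rank 100, and by a further 4.71-fold to rank 1000, where it was 866. Whether the flat head reflects a ceiling of the array was not tested. The 100 leading genes held 12.6 ± 0.257% of the summed signal and the 1000 leading genes 50.2 ± 0.575% (SD, n = 4).

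Of the 100 leading genes, 62 belonged to the lists of fuel use, mitochondrial energy and creatine kinase, 16 to the thick filament, thin filament or Z-disc, and 4 to the cytosolic ribosome. The oxidative phosphorylation lists alone supplied 38 of the 100, from 80 measured genes. They leave out ND5 and the ATP synthase subunit Atp5md, which also rank among the 100, so 38 and 62 count list members only. Calcium handling gave 2 genes and so did the heat shock list, apart from Cryab, which is counted with the Z-disc, and 14 genes were on none of the lists. These last include Tpt1, a translationally controlled growth-related protein (rank 16, 5984 ± 374), and ND5, the complex I subunit encoded in mitochondrial DNA (rank 23, 5759 ± 173). Membership was stable from array to array, with 90 genes among the leading 100 on every array and 110 on at least 1. A further 5 control sets and 10 sets without a unique gene symbol lay among the 100 probe sets with the highest signals and are not named. Of the probe sets behind the 100 leading genes, 7 are of the design class that can bind transcripts of several genes and 11 of the class with probes close to other transcripts. Hadh, Cox5b and Rps29 are read by such sets, and so are Myl3 and Myom2. For 62 of the 100 genes there was more than 1 set, with a median ratio of 1.36 between the highest and the next, and for 11 of them the ratio was over 10.

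The thick filament was led by the ventricular set of myosin chains. Myh6, the fast alpha heavy chain, had signals of 6799, 6631, 7118 and 7498 in replicates 1 to 4. Myl2, the ventricular regulatory light chain, had 7077, 6569.5, 6761 and 6939, and Myl3, the ventricular essential light chain, had 6895, 6829.9, 7269 and 7648. The 4 arrays lay close together for all 3 of these genes. Mybpc3, the cardiac myosin binding protein C, ranked 61 at 4755 ± 301 (SD, n = 4), while its skeletal relatives Mybpc2 and Mybpc1 had 107 ± 12.6 and 32.6 ± 15.5. Myom2, a protein of the M-band at the middle of the sarcomere, had 3582, 4730.4, 5366 and 4081. Its spread, 0.25 on the log2 scale, was the widest of the contractile genes in the leading 100.

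Myh7, the beta heavy chain of the fetal mouse ventricle, ranked 2363. Its signals were 297, 469, 557 and 271 in replicates 1 to 4. Replicates 2 and 3, which carried more atrial transcript, lay above 1 and 4, as for 20.6% of genes above the filter on low signals. The order of those arrays was the same for Tpm2, the beta tropomyosin, with 257, 316, 450.2 and 219. Myh7b, an ancient myosin whose gene carries a microRNA, had 79.2 ± 10.7, near the level of transcripts of organs not sampled. Myl1, an essential light chain of fast skeletal muscle, had 304, 238, 266 and 645, so replicate 4 was highest and the other 3 lay together.

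On the thin filament the cardiac forms again led each family. Tnnt2, cardiac troponin T, had 6515, 6463, 6705 and 7220.4. Tnni3, cardiac troponin I, had 5680.3, 5795, 5984 and 6151, and Tnnc1, the troponin C of heart and slow muscle, had 5185, 4827, 5669 and 5547. Their skeletal counterparts were at or near the level of transcripts of organs not sampled: Tnnt1 had 65.7 ± 8.35, Tnnt3 6.83 ± 3.28, Tnni2 18.7 ± 14.5, Tnnc2 9.88 ± 6.29 and Tnni1, the slow skeletal and fetal cardiac form, 4.30 ± 0.637 (SD, n = 4). Among tropomyosins Tpm1 ranked 19 at 5868 ± 253, followed by Tpm4 at 861 ± 23.3, Tpm3 at 506 ± 48.5 and Tpm2. The actins formed a less closed family. Actc1, cardiac actin, had 6471, 6111, 5935 and 6523. Acta1, skeletal actin, which the heart also makes and which rises in the fetal programme, had 3071, 1927, 2012 and 2456. Acta2, the smooth muscle actin of vessel walls, had 1791, 1116, 941 and 1459.8. For both Acta1 and Acta2, replicate 1 was highest, replicate 4 next and replicates 2 and 3 lowest. The Acta2 set is of the design class that can bind transcripts of several genes, and the other sets of Acta2 read 14.2 and 5.64. The part of other actins in its signal was not tested.

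**Figure D2:**
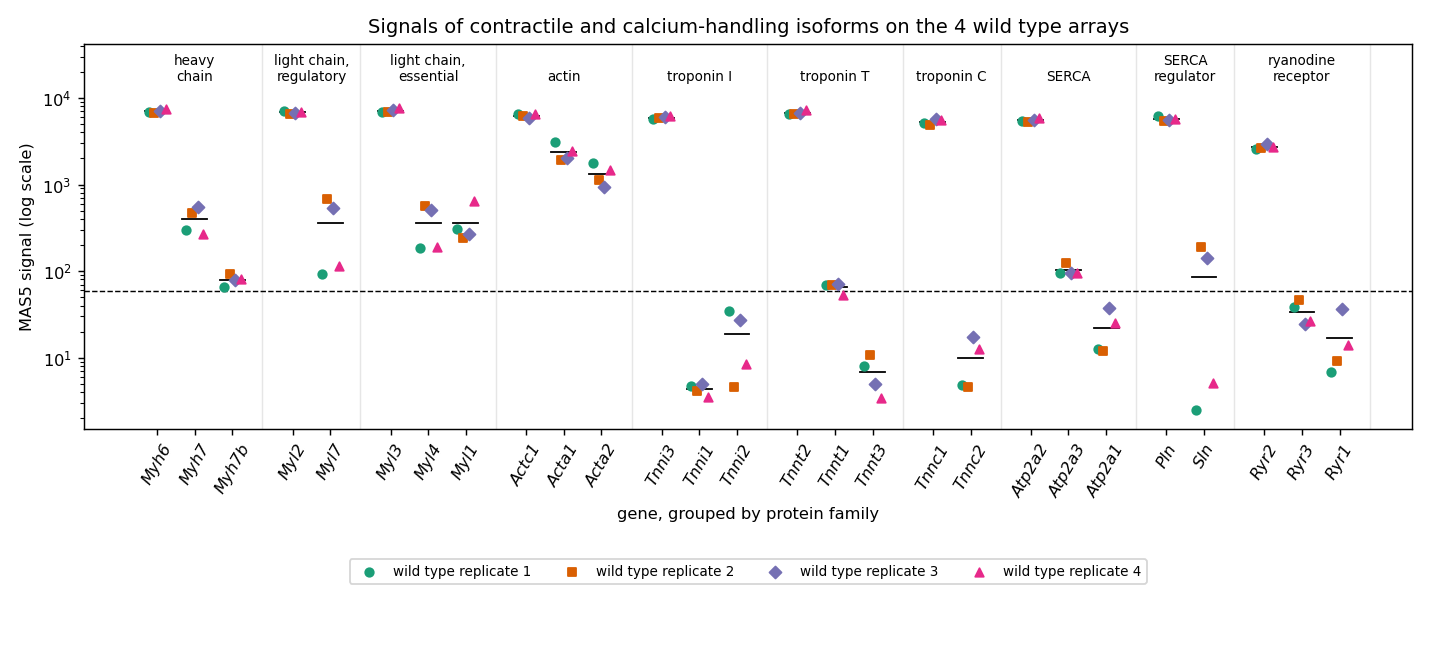
MAS5 signal (log scale) of contractile and calcium-handling isoforms, grouped by protein family. Each symbol is 1 of the 4 wild type arrays, the short bar is their mean and the dashed line is the 90th percentile of transcripts of organs not sampled (59.5). Within each family the cardiac or ventricular form lies near the top with its 4 arrays together, whereas Myl7, Myl4 and Sln split into replicates 2 and 3 above replicates 1 and 4.

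Titin and its partners at the Z-disc, where thin filaments of neighbouring sarcomeres are anchored, held 6 places in the leading 100. Ttn, the giant spring of the sarcomere, had 4943, 5289.5, 5128 and 5436. Cryab, a small heat shock protein that protects filaments, had 5179 ± 208, Csrp3, the muscle LIM protein, 5152 ± 227, Fhl2 5000.2 ± 229 and Myoz2 4598 ± 191 (SD, n = 4). The skeletal relatives Myoz1 and Ankrd2 were low at 30.9 ± 10.5 and 7.00 ± 2.79. The median spread of the 25 measured genes of this list was 0.07 on the log2 scale. At the intercalated disc, which joins cardiomyocytes end to end, the desmosomal protein Dsp led with 3229.7 ± 277. Gja1, the connexin of ventricular gap junctions, had 2424, 2384, 2366 and 2512, so its 4 arrays were close. Gja5, the connexin of atria and of the conduction system, had 2.50 ± 1.05; its probe set gave almost no signal. Dag1, dystroglycan, led the membrane anchors at 1792 ± 78.4.

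Calcium handling was led by the pump of the sarcoplasmic reticulum and its brake. Pln, phospholamban, which restrains the pump until it is phosphorylated, had 6223, 5365, 5608 and 5659. Atp2a2, the cardiac calcium pump SERCA2, had 5475, 5223, 5561 and 5914. The endothelial and blood cell form Atp2a3 had 103 ± 13.8 and the fast skeletal form Atp2a1 21.98 ± 12.2 (SD, n = 4). S100a1, which tunes the pump and the release channel, followed at 3818 ± 46.9. The lumen and the release unit came next, with Hrc at 3366 ± 126, Casq2, cardiac calsequestrin, at 3096 ± 236 and Ryr2, the cardiac release channel, at 2699.9 ± 143. Their skeletal relatives Casq1 and Ryr1 had 108 ± 24.9 and 16.7 ± 13.6, and Ryr3 had 34.01 ± 10.5. Of the 26 measured genes of calcium handling, 21 lay above the level of transcripts of organs not sampled, against 48.0% of all genes.

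Channels and pumps of the cell membrane had lower signals, with a median of 279 over 28 measured genes. Fxyd1, phospholemman, the regulator of the sodium pump, led at 2459 ± 111, followed by the sodium pump subunit Atp1b1 at 1868 ± 259 and Abcc9, a subunit of the ATP-sensitive potassium channel, at 1576 ± 214. Kcnip2, the subunit that gives the mouse ventricle its fast outward potassium current, had 635, 725, 937 and 918. Cacna2d1 and Kcnj11 had 790.1 ± 27.3 and 741 ± 70.7. Kcnj2, a potassium channel that ventricular myocytes are known to use for their resting potential, had 2.10 ± 0.605, a further case of a probe set with almost no signal. The alpha subunits of the sodium pump were not analysed here.

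Fatty acid supply gave 2 of the 15 genes with the highest signals. Fabp3 ranked 2, and Lpl, the lipase that frees fatty acids from lipoproteins at the capillary wall, ranked 15 with 6215, 5692, 5849 and 6528. Fabp4, the fatty acid binding protein of adipocytes, macrophages and capillary endothelium, ranked 36 with 5231, 5687, 5584 and 4746. Of the other adipocyte markers, Adipoq had 8.80 ± 2.60, Lep 4.11 ± 1.56 and Cidec 2.44 ± 2.40, while Cidea, a lipid droplet protein, had 427 ± 52.6. Of the 11 measured adipocyte markers, 5 lay above the level of transcripts of organs not sampled, near the share of all genes (48.0%). Got2, the mitochondrial aspartate aminotransferase that also binds fatty acids at the cell surface, had 4029.9 ± 196, and Cd36, the fatty acid translocase, 3755 ± 212 (SD, n = 4). Cpt1b and Acsl1, the muscle forms of the carnitine transferase and of the acyl-CoA synthetase, were not analysed here. The measured relatives were lower, with Cpt1a, the liver form, at 275 ± 32.2 and Acsl5 and Acsl6 at 168 ± 24.00 and 159 ± 18.9.

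In the mitochondrial matrix, Hadh, the short-chain hydroxyacyl-CoA dehydrogenase, ranked 11 at 6246 ± 361. Ech1, which prepares unsaturated fatty acids for oxidation, ranked 46 and had the smallest spread of the 1000 leading genes, with 5121, 5089.6, 5063 and 5139. Acadm, the medium-chain dehydrogenase, had 4773 ± 231. The carnitine shuttle and beta-oxidation list is not confined to the matrix. Fabp3 was its highest member at 7337, and the carboxylase Acaca its lowest at 97.1. All 29 measured genes of this list lay above the level of transcripts of organs not sampled, and 23 ranked among the leading 1000. Genes of lipid storage were less prominent, with a median of 726 over 18 genes. Dgat2, which makes triacylglycerol, led at 1779 ± 198, and Plin5, the droplet coat of oxidative tissues, had 1538, 1296, 1115 and 1035. Plin4 had 987 ± 82.99, Plin3 923 ± 105 and Plin2 547 ± 75.7. Angptl4, a circulating inhibitor of lipoprotein lipase that fasting raises, had 451, 264, 208 and 214. Replicate 1 was highest, and the gene was chosen after its values were seen.

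In most steps of glucose use the muscle form of the enzyme had the highest signal of its family. Slc2a4, the insulin-responsive transporter GLUT4, had 1628, 1836, 1674 and 2002, and Slc2a1, the transporter GLUT1 found in most cells, had 171, 216, 274 and 176. Hk2 had 1874 ± 102 and Hk1 962 ± 112. Pfkm, muscle phosphofructokinase, ranked 179 at 3222 ± 131, with the liver form Pfkl at 731 ± 71.3 and the platelet form Pfkp at 245 ± 40.6 (SD, n = 4). The pattern held for phosphoglycerate mutase, with Pgam2 of muscle at 2694 ± 131 and Pgam1 at 586 ± 58.4, and for enolase, with Eno3 of muscle at 4036 ± 86.7 and Eno2 of neurons at 10.8 ± 2.83. Aldoa led the pathway at rank 57 with 4959.5 ± 199.7. Both lactate dehydrogenase chains were high, Ldhb, the heart form, at 4549 ± 138 and Ldha at 3391 ± 170.1. The enzymes of glycogen breakdown did not follow a single form: Pygb, the brain form, had 2217, 2598, 2584 and 2803 and Pygm, the muscle form, had 2121, 2156, 2299 and 2504, and their ranges overlapped. Gapdh and Eno1 were not analysed here as genes.

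Entry of pyruvate into the citric acid cycle is held back by the pyruvate dehydrogenase kinases, which fatty acid use and fasting raise. Pdk4 led them with 4329, 3354, 3701 and 3979, and Pdk2 had 1419 ± 138, Pdk1 667 ± 59.1 and Pdk3 7.65 ± 1.26. The dehydrogenase itself, Pdha1, had 4715 ± 282. Mdh2, the mitochondrial malate dehydrogenase of the cycle, had 5001 ± 81.05, its cytosolic relative Mdh1, of the malate-aspartate shuttle, had 5135 ± 153, and Cs, citrate synthase, had 4434, 4426, 4517 and 4580.1. Oxct1, the enzyme that lets the heart burn ketone bodies, ranked 70 with 4616 ± 261 (SD, n = 4).

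Oxidative phosphorylation gave high signals that hardly moved between arrays. Of 80 measured genes on its lists, 73 ranked among the 500 leading genes. Complex IV had a median signal of 5155 over 15 genes, ATP synthase 5012 over 16, complex III with cytochrome c 4444 over 11, complex I 3642 over 34 and complex II 3279 over 4. These medians are of signals and do not give the ratio of the complexes. The median spread between arrays was 0.04 on the log2 scale for ATP synthase, 0.05 for complex III and 0.06 for complexes I and IV. These were the 4 smallest of any list, against 0.17 over all genes above the filter on low signals. Spread narrowed with signal, however, and was 0.06 for the 100 leading genes of any kind and 0.08 for the next 400. The values of these lists are therefore close to those of other genes with high signals. Whether they are smaller at equal signal was not tested. The leading subunits were Uqcrb (6273 ± 284) of complex III, Atp5a1 (6184 ± 439.6), Atp5c1 (6178 ± 204) and Atp5b (6137 ± 175) of the ATP synthase catalytic head, Cox7a2 (5927 ± 249.7) of complex IV and Cycs, cytochrome c (5689.5 ± 64.9). Cyct, the cytochrome c of testis, had 18.4 ± 5.87.

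Several subunits of complex IV exist in a heart and muscle form and a form of other tissues. The muscle form had the higher signal for subunit 6a, with Cox6a2 at 5692, 5619.6, 6142 and 5943 and Cox6a1 at 2476, 1929, 1830.0 and 2304. It was likewise higher for subunit 8, with Cox8b at 5338 ± 188 and Cox8a at 1652 ± 102. For subunit 7a both forms were high, Cox7a1 of muscle at 4592 ± 142 and Cox7a2 above it. Cox4i1 had 5795 ± 155 and Cox4i2, the form of lung and low oxygen, 37.99 ± 5.46. The creatine kinase shuttle showed the same muscle pattern, with the mitochondrial Ckmt2 at 5579.5, 5468, 5682 and 6034 and the cytosolic Ckm at 5368, 5349, 5201 and 5462. The brain form Ckb had 463 ± 58.6 and the other mitochondrial form Ckmt1 20.2 ± 9.83 (SD, n = 4). Slc25a5, the carrier of proliferating cells that pairs with Slc25a4, had 2967 ± 279.

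Transcription factors had modest signals, with a median of 286 over 41 genes. Hopx, a homeodomain protein that dampens serum response factor, led them at 3181 ± 144 and was the 1 member among the 500 leading genes. Ppargc1a, the coactivator that drives mitochondrial genes, had 1152, 1180.5, 1250.5 and 1569, so replicate 4 was highest. Perm1 (1125 ± 68.6), Mef2a (1067 ± 64.2) and Tbx20 (818 ± 89.6) came next. Of the nuclear receptors for fuel use, Esrra had 645 ± 36.6, Ppara 523 ± 32.5 and Esrrg 405 ± 26.1, while Ppard had 112 ± 17.5 and Pparg, the adipocyte receptor, 56.96 ± 15.1. Esrrb, better known from embryonic stem cells, had 112, 212, 196 and 93.98. Its replicates 2 and 3 lay above 1 and 4, as for 20.6% of genes above the filter. Isl1, a factor of heart progenitors and the sinus node, had 5.97 ± 6.73.

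The ventricle also makes hormones. Nppb, B-type natriuretic peptide, had 2614, 1942, 1832 and 2214, and Nppa, atrial natriuretic peptide, had 1551, 1635, 1717 and 963, lowest on replicate 4. The order of the arrays was therefore not shared by these 2 peptides. Clu, clusterin, a secreted chaperone, led the secreted proteins at 3979.5 ± 164, and Vegfb, a growth factor linked to coronary vessels, had 1832 ± 153. Fgf1, a fibroblast growth factor, had 1178 ± 132 (SD, n = 4). Among 14 measured receptors for hormones and transmitters, 8 lay above the level of transcripts of organs not sampled, near the share of all genes (48.0%). Agtr1a, the angiotensin receptor, led at 399 ± 41.7, and Ednrb, the endothelin B receptor, had 347, 411, 426 and 163. The beta-adrenergic receptors were not analysed here.

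Cytosolic ribosomal proteins had a median signal of 2660 over 37 measured genes, and 30 of them ranked among the leading 500. Rps29 led at rank 30 with 5503, 5654, 5633 and 5665. Small heat shock proteins of muscle were prominent, with Hspb6 at 4980.5 ± 300.2 and Hspb7 at 4046, 4649.6, 4743 and 5388, while the stress-inducible Hspa1a had 49.9 ± 6.72. Of the antioxidant genes, Sod2, the mitochondrial superoxide dismutase, led at 3549.7 ± 174, followed by the metallothionein Mt1 at 3399 ± 102. Hmox1, induced by haem and oxidants, was lowest at 68.5 ± 18.05.

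Clock genes, which cycle over the day, had a median spread of 0.31 over 18 genes in mice that were all killed between 7 and 8 AM. Nr1d2, a clock repressor, led at 1205 ± 127. Dbp, a clock output factor, had 207, 338, 365 and 186, and Per1 had 111, 142, 163 and 75.8. Ciart, a further clock repressor, had 11.2, 67.6, 70.2 and 17.8. In all 3 of these, replicates 2 and 3 were above replicates 1 and 4, as for 20.6% of genes above the filter. They were chosen after their values were seen, and Ciart was the most variable clock gene. Immediate early genes, which respond to stress and handling within minutes, had a median spread of 0.31 over 23 genes. Dusp1 led at 793, 1032, 861 and 1152, and 13 of the 23 genes were highest on replicate 4 and 13 lowest on replicate 1, against 3062 and 2849 of the 10916 genes above the filter. The median deviation of this list from its genes' means was 0.23 on replicate 4 and -0.20 on replicate 1, on the log2 scale. The part of tissue handling in this was not tested.

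**Figure D3:**
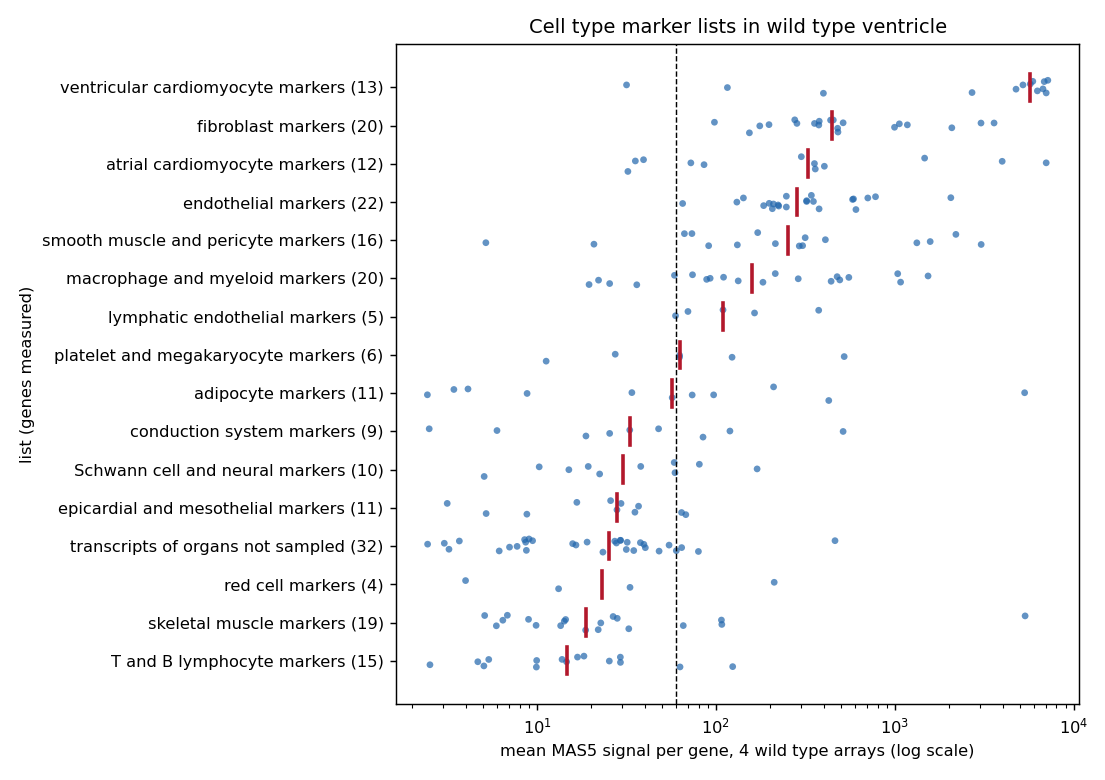
Mean MAS5 signal (horizontal, log scale) of each measured marker gene, by cell type list, ordered by median. Each point is a gene averaged over the 4 wild type arrays, the bar is the list's median, the number in brackets is the genes measured and the dashed line is the 90th percentile of transcripts of organs not sampled (59.5). Ventricular cardiomyocyte markers have a median of 5714, fibroblast markers 445 and lymphocyte markers 14.6.

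The 13 ventricular cardiomyocyte markers had a median signal of 5714 and a median spread of 0.08. The list includes forms described above as cardiac, such as Tnnt2, Tnni3 and Actc1, and Myh6 is also on the atrial list. A high median therefore does not check the label of the chamber. Within the list 9 genes were among the leading 100. The low members were Myh7 (399 ± 137) and the transcription factors Irx4 (116 ± 9.62) and Hey2 (31.6 ± 3.13). Hey2 lay under the level of transcripts of organs not sampled. In tissue RNA, a higher signal of a marker list cannot be told apart between more cells of a type and more RNA of those genes per cell.

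Endothelial genes all gave signal. The 22 measured lay above the level of transcripts of organs not sampled, with a median of 284. Aqp1, the water channel of capillaries, led at 2043, 1842, 2225 and 2111, followed by Eng at 779.5 ± 119.8 and Sox18 at 706 ± 58.5. Pericyte and smooth muscle genes ranged widely. Rgs5, a pericyte regulator of G protein signalling, had 3037 ± 168, while Cnn1, the calponin of smooth muscle, had 20.8 ± 2.42 and Lmod1, an actin nucleator of smooth muscle, 5.18 ± 2.15. Des and Abcc9 on this list are also made by cardiomyocytes.

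Fibroblast markers had a median of 445 over 20 genes, all above the level of transcripts of organs not sampled. Gsn, gelsolin, led with 3400.3, 3376, 3514 and 4050.1, and Dcn, the proteoglycan decorin, followed with 3049, 2880.5, 2785 and 3406. Of the other matrix genes, Mgp, an inhibitor of calcification, had 1692 ± 159.6 and Col4a1, a basement membrane collagen, 1287 ± 132 (SD, n = 4). Myeloid genes had a median of 158 over 20 genes, led by the lysozymes Lyz1 (1533 ± 391) and Lyz2 (1077 ± 314), whose sequences are nearly alike, and by Csf1r, the macrophage growth factor receptor (1037 ± 169). The probe sets of the neutrophil genes gave low signals, with S100a8 at 36.1 ± 18.9 and S100a9 at 63.95, 6.64, 4.47 and 26.8. S100a9 on replicate 1 lay above the level of transcripts of organs not sampled. These 2 genes were chosen after their values were seen.

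Other cell types left weak signals. Lymphocyte markers had a median of 14.6, and 2 of 15 lay above the level of transcripts of organs not sampled, against 48.0% of all genes. Skeletal muscle markers had a median of 18.7 over 19 genes, where the high member was Ckm, which the heart shares. Epicardial genes had a median of 27.98, neural genes 30.2 and conduction system genes 32.99. Dbh, the enzyme that makes noradrenaline in sympathetic neurons, had 169.8 ± 22.3, the highest of the neural list. The platelet chemokine Pf4 had 521 ± 72.5 and was highest on replicate 4, without which its mean was 492 ± 53.6. The other 5 of the 6 platelet genes were highest on replicate 2, as were 2317 of the 10916 genes above the filter. The median deviation of the platelet list there was 0.51 on the log2 scale. Alas2, the haem enzyme of red cells, had 212 ± 24.5. The Y-linked Eif2s3y and Uty had 279 ± 29.5 and 127 ± 7.16, and Xist had 44.9 ± 11.7.

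**Figure D4:**
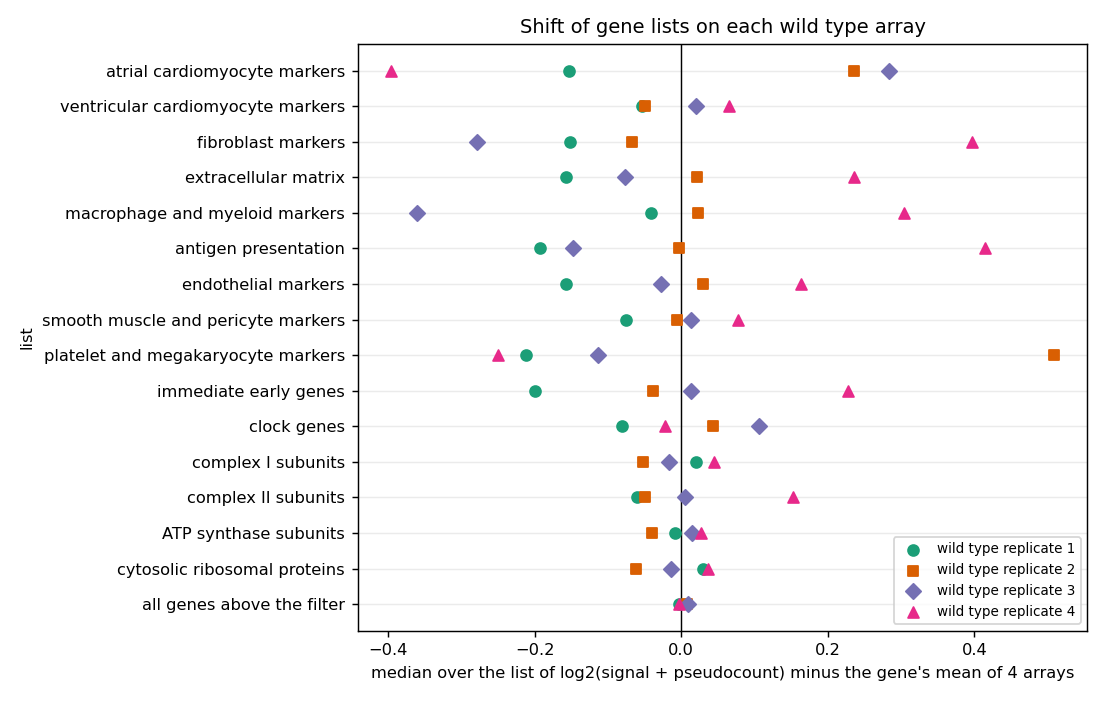
For each list, the median over its genes of the log2 deviation from the gene's own mean of 4 arrays (horizontal), with 1 symbol per wild type array. Fibroblast, matrix, macrophage and antigen presentation lists lie highest on replicate 4, atrial markers lie highest on replicates 2 and 3, platelet markers lie highest on replicate 2, and the complex I, ATP synthase, ribosomal and all-gene lists lie near 0 on every array. Complex II, with 4 genes, lies at 0.15 on replicate 4.

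Replicate 4 stood apart in fibroblast, matrix, myeloid and antigen presentation genes. It was highest for 18 of 20 fibroblast markers, 24 of 39 matrix genes, 15 of 20 myeloid markers and 9 of 12 antigen presentation genes. Over all genes above the filter it was highest for 3062 of 10916. The summed signal of the fibroblast list was 14938, 15289, 13909.5 and 22195 in replicates 1 to 4, and that of the matrix list was 18847, 20387, 18967 and 25663. Replicate 4 was highest for 14 of 22 endothelial genes as well, and for 23 of 34 complex I, 4 of 4 complex II and 14 of 24 antioxidant genes. In the carnitine shuttle and beta-oxidation list it was highest for 18 of 29 genes. The size of the shift differed between these lists: the median deviation on replicate 4 from the genes' own means was 0.40 on the log2 scale for fibroblast markers, 0.42 for antigen presentation, 0.30 for myeloid markers and 0.24 for matrix genes, against 0.16 for endothelial markers, 0.15 for complex II, 0.09 for antioxidant genes, 0.06 for beta-oxidation and 0.04 for complex I. Ventricular markers were also highest there for 8 of 13, with summed signals of 58118, 56862, 58912 and 61351. The lymphocyte list had a median deviation of -0.099 on replicate 4. Of its 15 measured genes, 13 lay at or below the level of transcripts of organs not sampled, so this value cannot show whether lymphocyte transcripts were raised. Replicate 3 was lowest for 15 of 20 myeloid and 11 of 20 fibroblast markers, against 2601 of 10916 genes above the filter. Its median deviations were -0.36 and -0.28 for these 2 lists. The median spread of the myeloid list, 0.40, was 0.30 without replicate 3 and 0.27 without replicate 4.

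Fibrillar collagens were among the genes with a high signal on replicate 4. Col3a1, type III collagen, had 698, 775, 578 and 2646, and Col1a1, the main chain of type I collagen, had 189, 160.4, 129.6 and 624. Col1a2 had 353, 378, 363 and 962, and Fn1, fibronectin, had 168, 223, 204 and 539. Replicate 4 alone was high for these 4 genes, and the other 3 arrays lay together. Postn, a matrix protein of activated fibroblasts, had 289, 283, 296 and 635, and Timp1, an inhibitor of matrix proteases, had 51.9, 52.02, 38.1 and 109. Col1a1, Col1a2, Fn1, Postn and Timp1 were chosen after their values were seen, as genes at least 2-fold above the next array on replicate 4. Smoc2, a matricellular protein on the fibroblast list and likewise chosen after its values were seen, had 474, 430.2, 443 and 464. Without replicate 4 the mean of Col3a1 was 684 ± 99.4 (SD, n = 3), against 1174 ± 984 with it. The fibroblast list then had a median of 385 in place of 445, and its median spread was 0.14 in place of 0.31. Whether the cause lies in the tissue piece, the animal or the array was not tested.

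Antigen presentation genes were also high on replicate 4, where the list's median deviation was 0.42 on the log2 scale. H2-Aa, a class II chain of antigen-presenting cells, had 734, 1008, 783 and 1354, and Cd74, its chaperone, had 538, 776, 545 and 1012. The class I genes H2-K1 and H2-D1, which are close in sequence, had 1415 ± 328 and 1246 ± 325. The complement gene C1qa of tissue macrophages had 503, 553, 357 and 799. Replicate 4 was highest and replicate 1 or 3 lowest for each of these 3 genes with 4 values given. Without replicate 4 the median spread of the antigen presentation list was 0.10 in place of 0.30.

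Atrial transcripts split the arrays another way. Sln, sarcolipin, the pump regulator of atrial muscle, had 2.48, 192, 144 and 5.12 in replicates 1 to 4 and the widest spread of all 10916 genes above the filter, 2.47 on the log2 scale. Myl7, the atrial regulatory light chain, had 92.7, 674, 539 and 115. Myl4, the atrial essential light chain, had 185, 558, 503 and 190.1. For all 3, replicates 2 and 3 lay above replicates 1 and 4 with no overlap. Of the 12 atrial markers, 8 showed this split, against 20.6% of all genes above the filter, and the split was noticed in these same arrays. The other 5 of the 8 were Nppa, Stard10, Dkk3, Mybphl and Tbx5, with smaller differences: Stard10 had 400.4, 419.8, 444 and 349.95, and Mybphl, a myosin binding protein of atrial muscle, had 25.7, 57.8, 41.3 and 16.99. The list's median deviation was 0.24 and 0.28 on replicates 2 and 3, against -0.15 and -0.40 on replicates 1 and 4. Bmp10, a growth factor of the right atrium, had 35.7, 33.6, 52.01 and 7.52 and did not split this way, nor did Kcnj3 or Myh6 and Clu, which the ventricle makes too. The part of atrial tissue in the isolated pieces was not tested.

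**Figure D5:**
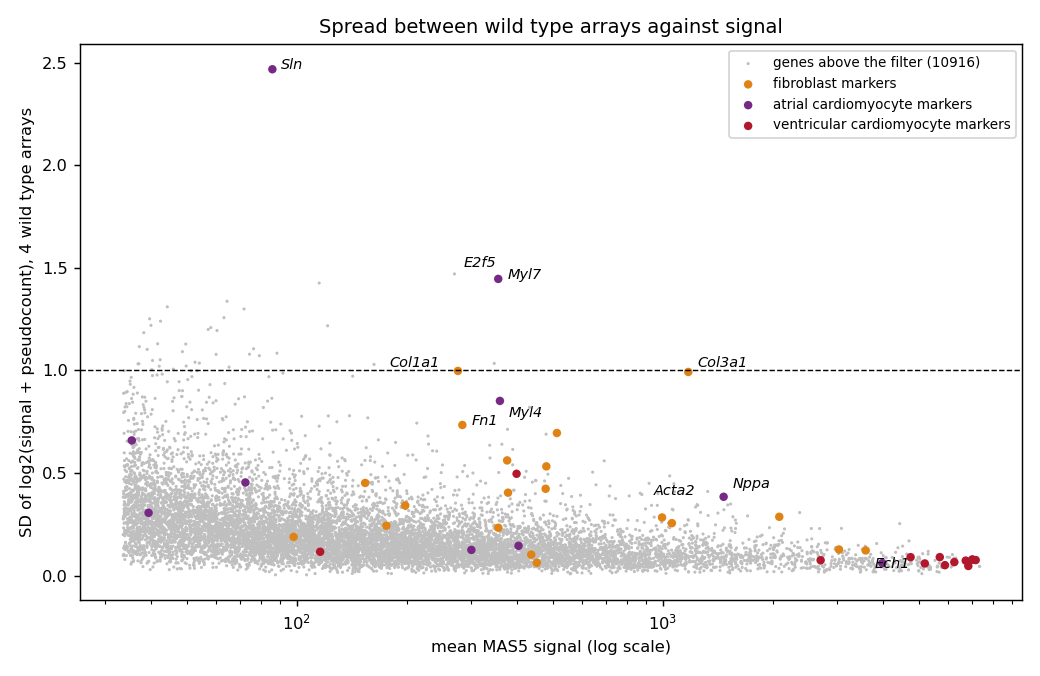
Spread between the 4 wild type arrays, as the SD of log2(signal + pseudocount), against mean MAS5 signal (log scale) for the 10916 genes above the filter on low signals. Coloured points are fibroblast, atrial and ventricular cardiomyocyte markers, and the dashed line marks a spread of 1. The spread narrows toward high signals, where the ventricular markers lie, and Sln, Myl7 and Col3a1 stand above their neighbours.

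Across all 10916 genes above the filter, the median spread was 0.17 on the log2 scale, and 39 genes had a spread above 1. The spread depended on signal. It was 0.06 for ranks 1 to 100, with a median coefficient of variation of 4.12%, 0.08 for the next 400 genes, 0.10 for the 500 after those and 0.24 for the 4916 genes nearest to the filter. Of the 39 most variable genes, 35 ranked beyond 6000. The genes that varied most after Sln were E2f5, a cell cycle transcription factor (354, 415, 41.2 and 269), and Myl7. Then came genes of low signal, among them Cfap61 (69.2, 20.3, 278 and 93.5), Marchf10, Fcsk, Adamtsl2, Plet1, Abca2, Smim22, Elavl2 and Bola2. Replicate 4 was the lowest array for Marchf10, Fcsk, Plet1, Smim22 and Elavl2 and the highest for Abca2 and Bola2.

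At the quiet end, the least variable of the 1000 leading genes were Ech1, Arhgef12, a guanine nucleotide exchange factor (1021 ± 7.65), the tetraspanin Cd151 (1525 ± 13.7), Vti1b of vesicle fusion (1264 ± 14.3), Smpx, a small muscle protein (3466 ± 39.6), and Vps35 of the retromer (1224 ± 14.03, SD, n = 4). Each had a coefficient of variation at or under 1.15%. A gap of at least 2-fold to the next array marked 96 genes for replicate 4, where 16 were above and 80 below, against 38, 35 and 37 for replicates 1, 2 and 3. Of 497 genes with a spread above 0.5 (4.55% of those above the filter), replicate 4 was the farthest array for 211, replicate 3 for 123, replicate 1 for 89 and replicate 2 for 74.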

How the data were processed

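RNA of ventricular myocardium was hybridised to Affymetrix mouse arrays, 1 array per sample. The authors deposited linear intensities made with MAS5, per the submitters' processing notes, 1 for each probe set and array. The MAS5 version is not given in the sources used here, nor are its settings. The mean intensity without the lowest and highest 2% of sets was 100.001 on each wild type array, so total signal cannot be compared between arrays.

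The 4 wild type arrays were grouped by title. Of 45101 probe sets, 64 were controls, 34945 had 1 gene symbol, 932 had several and 9160 had none here. Symbols with 1 gene were used, 34741 sets matched a RefSeq gene table (GRCm38.p6) by Entrez identifier, and 0 symbols changed. Each gene took its set with the highest wild type mean. Spread is the SD of log2(intensity + 5.27), where 5.27 is the 20th percentile of wild type intensities, and genes above the 40th percentile of means (33.6) were kept for it. Errors are SDs between arrays. For arrays, the number of samples limits the precision.

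No groups were compared. The one test run was Dixon's, for 1 array far from the other 3, on the genes named in the text. The gene lists, isoform families and members were chosen with earlier results of these data known. Named genes are the 30 leading genes, the isoform families, up to 6 leading and 2 lowest members of each list, the 12 genes of largest spread and the 6 of smallest spread among the leading 1000. Unnamed cDNA clones were passed over, and exceptions are marked in the text. Genes of the lists without a probe set of their own symbol were not analysed here. Computations used Python 3.11.15, pandas 2.3.3, numpy 2.4.6 and scipy 1.17.1, and the spread calculation was tested on simulated data. Alternatives were quantile normalization, other choices of probe set, ranking by the median, pseudocounts of 1 and 16, no filter or a filter at the 60th percentile, and leaving out each array.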

Additional observations from a re-analysis of the deposited data

Results flagged for a closer look

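Of 235 genes named in the text, 15 had 1 array farther from the other 3 than the 95% limit of Dixon's test for 4 values allows (on the log2 scale). Chance gives about 1 in 20 such groups, or 11.75 of 235, so 15 is near that number and the genes below are given as values only. Col1a2 and Postn were named because replicate 4 was far from the others, and Abca2 for its large spread, so their place here follows in part from that choice.

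On replicate 4, 5 genes were high. Col1a2, a type I collagen chain, had a signal of 962 there, against 353 to 378 on the other arrays, and Postn had 635, against 283 to 296. H2-K1 had 1904, against 1202 to 1280, Fabp3 had 7679, against 7192 to 7267, and Abca2, a lipid transporter, had 112, against 13.4 to 17.7. The 3 genes low on replicate 4 were Ckmt1 at 5.59, against 23.8 to 26.9, Tnnt1 at 53.3, against 68.5 to 71.4, and Uty at 116, against 129.7 to 131.

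Replicate 2 was high for Atp2a3, at 123 against 95.7 to 96.0, and for Isl1, at 16.1 against 1.995 to 3.10, and low for Clu, at 3736 against 4043 to 4091, and for Bsg, at 3719 against 4168 to 4237. Replicate 1 was low for Abcc9, at 1259 against 1639 to 1728, and high for Fgf1, at 1374 against 1092 to 1133. Replicate 3 was high for Mybpc1, at 55.7 against 23.4 to 26.5. The mean signals of Abca2, Ckmt1, Isl1, Tnnt1 and Mybpc1 are near those of transcripts of organs not sampled.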

How the results depend on the processing

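The counts of contractile and energy genes among the leading 100 and the median spread stayed within 1.5 times their value under every alternative run. With the mean over all probe sets of a gene in place of the highest, the leading 100 held 14.8% of the signal in place of 12.6%, ribosomal genes among them numbered 7 in place of 4, and 72 of the 100 genes were shared. That choice also moved the mean log2 signal of 109 of 235 named genes by more than their spread between arrays. Choosing sets over all 18 arrays and quantile normalization each left all 100 leading genes shared, and ranking by the median left 99. The count of genes with a spread above 1, 39 in the report, was 8 with a pseudocount of 16, 71 with a pseudocount of 1, 154 with no filter and 7 with a filter at the 60th percentile, so it is set by how low signals are treated. Leaving out 1 array gave 44 to 59 such genes, with the most without replicate 2. No paired analysis was possible because no groups were compared.

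With 4 arrays, no detection calls and 1 scaled signal per probe set, small differences between arrays, levels near those of transcripts of organs not sampled and any order between genes of close rank cannot be resolved.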

Other observations

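The 14 leading genes that belong to none of the lists, Tpt1 and ND5 among them, were named after their values were seen, and several have known roles in muscle or mitochondria. Fth1, the ferritin heavy chain that stores iron, ranked 32 with a signal of 5392 ± 114 (SD, n = 4), and Nme2, a nucleoside diphosphate kinase, ranked 38 with 5301 ± 148. Chchd10, a protein of the mitochondrial intermembrane space, had 5045 ± 228, and Atp5md, a small subunit of the ATP synthase dimer, had 4694 ± 91.2. Itm2b, an integral membrane protein, had 4326 ± 351, and Gm12338, a predicted gene, had 4548 ± 161. Tuba4a, an alpha tubulin, had 4938 ± 255. Eef1a2, the muscle and neuron form of the elongation factor that brings transfer RNA to the ribosome, had 4776 ± 193, and Crip2, a LIM protein of the heart and vessels, had 4751 ± 209. Actb, cytoplasmic actin, had 4234 ± 263, Bsg, a partner of the lactate transporters, had 4078 ± 241 and Ccng1, a cyclin, closed the leading 100 with 4074 ± 86.6.

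Probe sets of the same gene often differed in signal, which bears on any rank given here. The 3 sets of Pln read 5714, 5649 and 5325, and those of Myl3 read 7160.5, 6462 and 6209, so these genes keep a high signal whichever set is used. The 6 sets of Atp2a2 read 5543, 5476, 2595, 389, 49.6 and 4.09, and those of Ttn ran down to 25.6. Fabp3 had a set at 86.0 beside its leading set at 7337, and Mb had a set at 8.03 beside 6323. Myh6 had 7011 and 2321. Sln, Myl4 and Col3a1, whose arrays differed widely, each had a further set of low signal, at 8.84, 45.4 and 64.2. These sets were named after their values were seen. Where each set lies on its transcript was not analysed here.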
